A study of Mus musculus with 49 samples.

Results

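The genes described here are the mitochondrially encoded genes of single mouse neurons, taken as every gene of the deposited table whose symbol begins with mt-. They are 10 of the 9020 genes listed, and all 10 were followed in all 49 cells. The table holds both ribosomal RNAs of the mitochondrial genome (mt-Rnr1 and mt-Rnr2), 7 of its 13 protein-coding genes (mt-Nd1, mt-Nd2, mt-Nd4, mt-Nd5, mt-Nd6, mt-Co1 and mt-Cytb) and 1 of its 22 transfer RNAs (mt-Tq). Each listed gene reached 100 RPM (the authors' unit, the reads of a gene relative to all reads of its cell) in at least 2 cells.

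The cells were collected at P7 from wild-type CD1 mice whose cortical neurons had been labelled at E13.5 with FlashTag, a dye that marks cells dividing at the ventricular surface on the day of injection. Bright cells of the primary somatosensory cortex were aspirated into a patch pipette, one by one, and their RNA was sequenced from the 3′ ends of transcripts. All 49 cells are 1 condition without a treatment or a control group, and the animal of a cell is not labelled. For this reason the cells count as 1 sample here, and differences between them are described without a test. They were sequenced in 5 library pools of 9 to 12 cells, and the authors mixed days of collection and depths in the cortex within a pool.

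Mitochondria carry a small circular genome that encodes the RNAs of their own ribosomes, transfer RNAs, and core subunits of the respiratory chain, while the remaining subunits are encoded in the nucleus and imported. Both strands are transcribed as long precursors, which are cut mainly at the transfer RNAs that lie between the other genes. Most of the messenger RNAs are then polyadenylated. Neurons depend on respiration for the energy of ion pumping and synaptic transmission. The mitochondrial share of reads is also in common use as a quality measure of single-cell libraries.

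Sequences of the ends of the transcripts are shown for the genes that took most of the reads, because the libraries read 3′ ends. They are the last bases of mt-Rnr2 (chrM:2616-2675, plus strand), mt-Nd1 (chrM:3648-3707, plus), mt-Nd4 (chrM:11485-11544, plus) and mt-Cytb (chrM:15229-15288, plus), with the stop codon in capitals. In mt-Nd4 and mt-Cytb the annotated gene ends in a lone T, which becomes a stop codon when the poly(A) tail is added.
mt-Rnr2: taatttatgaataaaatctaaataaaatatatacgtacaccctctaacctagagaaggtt
mt-Nd1: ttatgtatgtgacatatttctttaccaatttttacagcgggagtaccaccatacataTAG
mt-Nd4: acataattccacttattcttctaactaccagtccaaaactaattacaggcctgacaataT
mt-Cytb: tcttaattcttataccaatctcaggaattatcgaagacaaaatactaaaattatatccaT

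The transfer RNA for glutamine, mt-Tq (chrM:3772-3842, minus strand), is shown whole because it lies against the direction of mt-Nd1 and mt-Nd2 on its flanks, so that RNA read through from these genes would hold its complement.
mt-Tq: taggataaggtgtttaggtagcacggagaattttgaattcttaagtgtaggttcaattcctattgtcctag

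The neighbours mt-Nd5 (plus strand) and mt-Nd6 (minus strand) overlap by 14 bases at chrM:13552-13565. The overlap is printed as each gene reads it.
mt-Nd5: ttaatctcgagtaa
mt-Nd6: ttactcgagattaa

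Some mitochondrial sequences have near-identical copies in the nuclear genome, and reads from stretches without a difference cannot be assigned to one place. The last 100 bases of mt-Co1 (chrM:6773-6872, plus strand) are printed with those of 2 annotated nuclear pseudogenes, Gm29216 (chr1:24615706-24615805, minus strand) and Gm13340 (chr2:22588103-22588202, minus strand). Capitals mark the bases that differ from mt-Co1, of which there are 0 in Gm29216 and 3 in Gm13340.
mt-Co1: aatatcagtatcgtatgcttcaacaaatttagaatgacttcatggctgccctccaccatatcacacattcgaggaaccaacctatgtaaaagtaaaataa
Gm29216: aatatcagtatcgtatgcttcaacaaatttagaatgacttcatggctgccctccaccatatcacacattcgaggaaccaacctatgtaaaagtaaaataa
Gm13340: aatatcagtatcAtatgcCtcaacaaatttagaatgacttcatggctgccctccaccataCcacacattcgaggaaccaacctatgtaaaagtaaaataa

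The label of the cells was checked on marker genes. At least 2 of the 4 neuron markers (Snap25, Syt1, Stmn2 and Map2) reached 10 RPM in 49 of 49 cells, and at least 2 of 3 excitatory markers did so in 35 cells. At least 2 of 4 hemoglobin genes, which mark red blood cells, also reached it, in 47 cells. Markers of other cell types of the brain did so in fewer cells, namely 15 for the oligodendrocyte lineage, 12 for inhibitory neurons, 10 for astrocytes and 9 for microglia. Endothelium and choroid plexus had 1 listed gene each, so a rule of 2 markers could not be applied to them. The endothelial gene Flt1 had a read in 12 cells. The choroid plexus gene Ttr had one in 47 cells, with a median of 95.3 RPM and a highest value of 84814 RPM. The reads behind the RPM values could be recovered and came to between 209850 and 35342325 per cell, so that mitochondrial values are more precise in some cells than in others by far. Between 2522 and 806510 of these reads lay on the 10 mitochondrial genes, with a median of 16459 per cell.

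The mitochondrial share of reads, counted here on the 10 listed genes only, spanned a wide range within this single condition. Reads on mitochondrial genes outside the table are not in it, so it is not the share of the whole mitochondrial genome. From the lowest value of 0.0972% over a median of 1.19% to the highest of 9.81%, cells differed by up to 100.9-fold. The middle of the distribution was narrower, with quartiles at 0.637% and 2.03%. From the order of the values, the 95% interval of the median was 0.777% to 1.81%. That interval takes the cells as independent, although they may share animals, so it is a description only. The share exceeded 0.5% in 38 cells, 1% in 27, 2% in 14 and 5% in 4. The cell of the lowest share, IL04 of pool 1, had 13784122 reads and an exact 95% interval of 0.0956% to 0.0989%. In the cell of the highest share, IL05 of pool 2, there were 734065 reads, and the interval was 9.74% to 9.88%. Counting error was therefore far smaller than the spread between cells. Because the library kit has no molecular identifiers, these intervals of single cells cover the counting error of reads only. A high share can come from more mitochondrial RNA or from less other RNA in the library, and these cannot be told apart. How much cytoplasm the pipette took from each cell is not given in the sources used here.

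The share varied widely within each of the library pools, but low cells did not occur in all of them. The median share was lowest in pool 3, at 0.664%, and highest in pool 2, at 2.08%. Between them lay pool 4 with 0.992%, pool 1 with 1.21% and pool 5 with 1.42%. Cells of pool 1 ranged from 0.0972% to 6.36%, those of pool 2 from 0.860% to 9.81% and those of pool 3 from 0.291% to 3.23%. In pool 4 the lowest share was 0.319% and the highest 4.86%, and in pool 5 they were 0.249% and 6.36%. The range common to all pools was thus 0.860% to 3.23%, and pool 2 had no cell below the overall lower quartile of 0.637%. In every pool the highest share was at least 11.1 times the lowest.

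**Figure D1:**
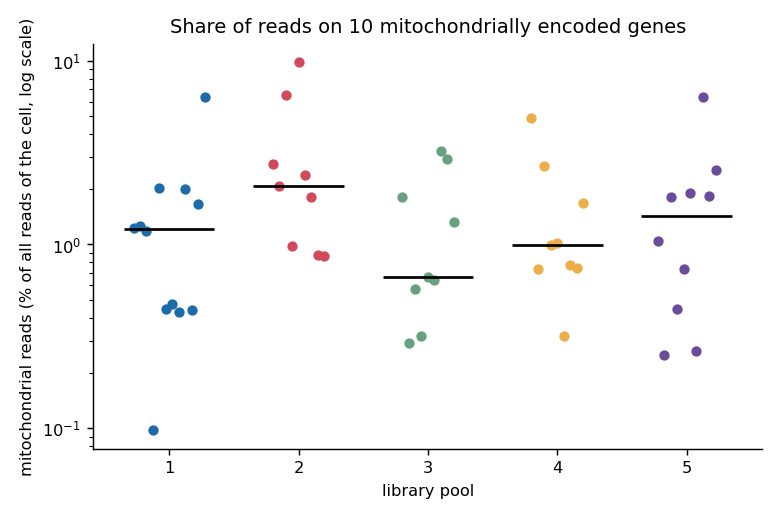
Share of each cell's reads on the 10 mitochondrially encoded genes (y axis, % of all reads, log scale) by library pool (x axis). Points are the 49 cells and bars the pool medians, which lie between 0.664% and 2.08%, while the cells of every pool spread over at least 11.1-fold.

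Cells with more reads tended to have a lower mitochondrial share. Over the 49 cells, Spearman's rho of the share with the total of reads was -0.43, and Pearson's r of the log10 values was -0.45. The correlation is a description only, since the cells share library pools and may share animals, and the total is the denominator of the share. Within pools rho was -0.59, 0, -0.42, -0.70 and -0.44 in pools 1 to 5. The relation thus had the same sign in 4 pools, while in pool 2 the rank order of the share did not follow depth. Without the 2 cells farthest from the median depth (35342325 and 19533497 reads), rho was -0.42 and r was -0.45.

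The lower share lay in the most deeply sequenced cells and did not fall in steps with depth. In the 16 cells with the fewest reads (209850 to 770702), the share ranged from 0.444% to 9.81% with a median of 1.503%. The 17 cells of middle depth, up to 3257485 reads, had a median of 1.84% and a range of 0.318% to 3.23%. The 16 cells with the most reads had a median of 0.525%, and 8 of them stayed under 0.5%, against 1 of the 16 shallowest cells and 2 of the middle 17. Their range, from 0.0972% to 6.49%, nevertheless overlapped both of the others. The exception at its top was IL03 of pool 2, which combined 12419177 reads with a share of 6.49%. Depth also differed between the library pools. The median was 9870201 reads in pool 1 and between 814366 and 1409643 in the others, so depth and pool are partly confounded. Without pool 1, rho of the share with depth was -0.33.

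Mitochondrial reads rose with the total, but less than in proportion. Their rho with the total was 0.68, and on log10 scales the slope was 0.671, where a constant share gives 1. The share also had a rho of -0.32 with the number of genes detected, which itself followed depth with a rho of 0.91. Why deeper cells had lower shares was not tested.

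**Figure D2:**
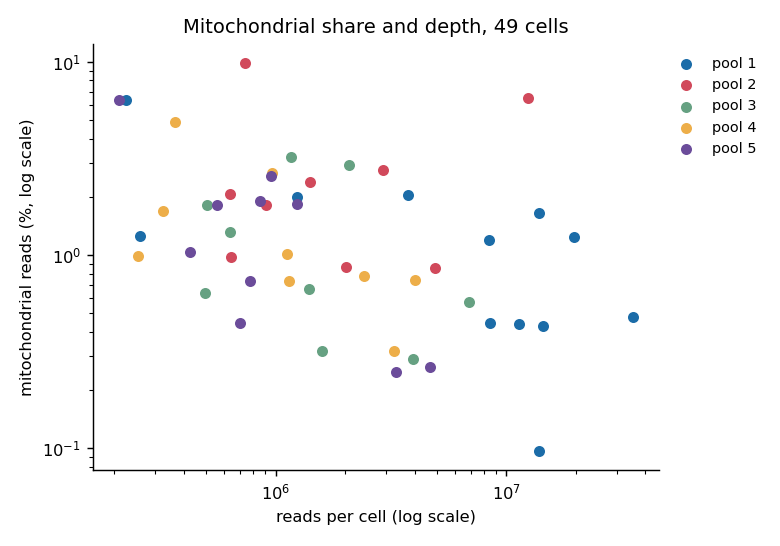
Share of reads on the 10 mitochondrially encoded genes (y axis, %, log scale) against the reads of each cell (x axis, log scale), with 49 points coloured by library pool. Low shares lie mostly at the right, among deeply sequenced cells, and 1 cell of pool 2 with 12419177 reads lies high at 6.49%.

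Of the mitochondrial reads, which here are those on the 10 listed genes, the larger part came from few of the genes. The ribosomal RNAs together took a median of 36.3% (16.5% to 64.1%), and the 5 mRNAs for subunits of complex I, the NADH dehydrogenase that begins the chain, took 43.9% (5.62% to 67.9%). The mRNA for cytochrome b, the subunit of complex III, accounted for 18.5% (5.31% to 47.1%). In each cell the 3 most abundant genes held between 59.8% and 95.8% of the mitochondrial reads, with a median of 70.7%. The most abundant was mt-Rnr2 in 31 cells, mt-Nd1 in 10 and mt-Cytb in 8, and no other gene led in any of the 49 cells.

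The large ribosomal RNA, mt-Rnr2 (chrM:1094-2675), took from 8.83% to 49.96% of the mitochondrial reads, with a median of 31.4%. The small one, mt-Rnr1 (chrM:70-1024), took from 0.188% to 18.4%, with a median of 6.77%. Both are processed from the same precursor. Per length, mt-Rnr2 was higher in 48 of 49 cells, and the ratio of reads per kb had a median of 2.82, a lowest value of 0.692 and a highest of 113. At the top of that range was IL12 of pool 1, in which mt-Rnr2 had 5051 reads and mt-Rnr1 had 27. In reads without the scaling by length, mt-Rnr2 was higher in all 49 cells, by a median of 4.67-fold.

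Among the complex I mRNAs, mt-Nd1 (chrM:2751-3707), which encodes a membrane subunit next to the ubiquinone site, had the highest median share. It made up between 0.617% and 36.97% of the mitochondrial reads, with a median of 17.7%. For mt-Nd4 (chrM:10167-11544), a proton-pumping subunit, the lowest, median and highest values were 0.244%, 10.8% and 20.2%. The shares of mt-Nd2 (chrM:3914-4951), another pumping subunit, were lower at 0.112%, 4.46% and 13.99%. At mt-Nd5 (chrM:11742-13565), the last of the pumping subunits, they were 0%, 1.03% and 8.89%. The complex I genes therefore differed in reads although most of their mRNAs are cut from a common precursor. Whether the mRNAs differ in the same way, or the 3′ ends are captured unequally, was not tested. Per length, mt-Nd1 was above mt-Nd2 in 48 of 49 cells, with a median ratio of 4.29, and mt-Nd4 was above mt-Nd5 in 47 of the 48 cells with a read of mt-Nd5, with a median ratio of 11.7. In reads these median ratios were 3.96 and 8.86.

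The gene on the opposite strand, mt-Nd6 (chrM:13552-14070, minus strand), encodes a membrane subunit of complex I. Its share of the mitochondrial reads was 0.119% at the lowest, 5.51% in the median cell and 21.95% at the highest. Per length it was above mt-Nd5 in 47 of 48 cells, by a median of 20.3-fold. In reads it was above mt-Nd5 in 46 of the 48 cells, by a median of 5.77-fold. The sources used here do not give the strand setting of the counting, so RNA of mt-Nd6 and RNA antisense to it from the mt-Nd5 side cannot be told apart. The same holds for mt-Tq, which took 0%, 0.276% and 1.60% of the mitochondrial reads and had up to 4971 reads in a cell.

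The mRNA for the catalytic subunit of complex IV, mt-Co1 (chrM:5328-6872), was the lowest of the protein-coding genes by its median share. The values were 0%, 0.477% and 4.13%. Per length, mt-Cytb (chrM:14145-15288) was above mt-Co1 in each of the 48 cells with a read of mt-Co1, by a median of 45.7-fold and a range of 4.35 to 1043. In reads the median was 33.8-fold, with a range of 3.22 to 772. The highest ratio came from IL09 of pool 3, which had 2 reads of mt-Co1. The end of mt-Co1 shown above has an exact nuclear copy in Gm29216, so its reads are uncertain, and the part of nuclear copies in its level was not tested.

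A gene without reads was rare. Of the 490 values, the only ones at 0 were mt-Co1 in IL02 of pool 1, mt-Nd5 in IL02 of pool 4 and mt-Tq in IL04 of pool 5. Taking 3 reads as the limit that a count of 0 allows, the level may have been up to 11.6 RPM for mt-Co1 in the first, 2.63 RPM for mt-Nd5 in the next and 4.29 RPM for mt-Tq in the last. The low values of mt-Nd5 and mt-Co1 were thus detected in 48 of 49 cells each.

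**Figure D3:**
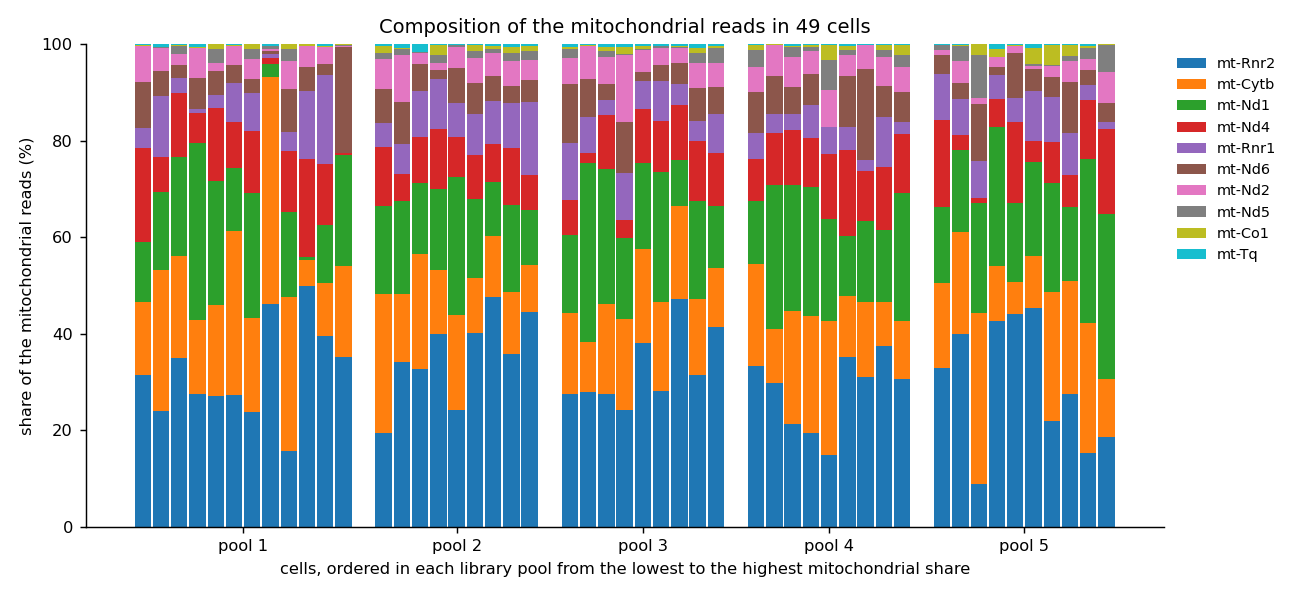
Share of each gene among the mitochondrial reads of a cell (y axis, %), stacked to 100, for the 49 cells in their library pools (x axis, cells ordered by mitochondrial share in each pool). The blue segment of mt-Rnr2 is the widest in 31 cells, and 1 bar of pool 1 consists almost wholly of mt-Rnr2 and mt-Cytb.

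The proportions differed between cells by more than the counting of reads gives. The SD over cells of the mt-Rnr2 share was 9.72 percentage points, where binomial counting of the same reads would give 0.436. For mt-Cytb the SD was 8.20 against 0.362 and for mt-Nd1 7.93 against 0.371. The root mean square deviation from the share in all reads pooled was between 5.29 times (mt-Tq) and 22.4 times (mt-Cytb) that of counting. How much of it is amplification of few molecules was not tested, because reads of this kit cannot be collapsed to molecules. The SD of the mt-Rnr2 share was 12.05 points in the 16 cells with the fewest reads, 9.35 in the middle 17 and 6.95 in the 16 with the most. That of mt-Nd1 was 8.24, 9.02 and 6.76 points in the same sets of cells.

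A few cells stood apart in their proportions and are named for that reason. IL02 of pool 1 had 46.1% of its 3239 mitochondrial reads on mt-Rnr2 and 47.1% on mt-Cytb, which left 6.82% for the other 8 genes. In IL12 of pool 1, mt-Nd6 took 21.95% of 14337 reads, while mt-Nd2 took 0.112%. IL09 of pool 1 had the highest share of mt-Rnr2, 49.96%, and the lowest of mt-Nd1, 0.617%. The lowest share of mt-Rnr2, 8.83%, and the highest of mt-Nd5, 8.89%, both came from IL04 of pool 5. The first 2 of these cells were among the least deeply sequenced, with 258130 and 225363 reads.

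Levels were next compared between genes per length, in RPM per kb of the annotated gene. The medians over the 49 cells were 2170 RPM per kb for mt-Nd1, 2055 for mt-Rnr2 and 2048 for mt-Cytb, followed by 1102 for mt-Nd6 and 811 for mt-Nd4. The medians of mt-Rnr1, mt-Nd2 and mt-Tq were 569, 440 and 436 RPM per kb. At the bottom were mt-Nd5 with 47.5 and mt-Co1 with 31.7. Neighbours in this order mostly did not differ beyond the spread of the cells, and for 8 of the 9 steps the order held in 23 to 35 of the 49 cells. The first was above the second in 23 of 49 cells, mt-Nd4 was above mt-Rnr1 in 24 and mt-Nd2 was above mt-Tq in 24. The step from mt-Tq down to mt-Nd5 held in 43 cells, more than any other step between neighbours. Since the kit reads 3′ ends, a read count need not grow with gene length. On the scale of RPM alone the order began with mt-Rnr2 (3250 RPM), mt-Cytb (2343) and mt-Nd1 (2077) and ended with mt-Nd5 (86.7), mt-Co1 (48.97) and mt-Tq (30.98).

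The spread of the levels also differed between genes. The SD over cells of log2(RPM + 1) was smallest for mt-Cytb, at 1.37, and it was 1.57 for mt-Rnr2 and 1.61 for mt-Nd1. It was 2.63 for mt-Co1 and largest for mt-Nd5, at 2.73, which are also the genes with the lowest levels per length.

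**Figure D4:**
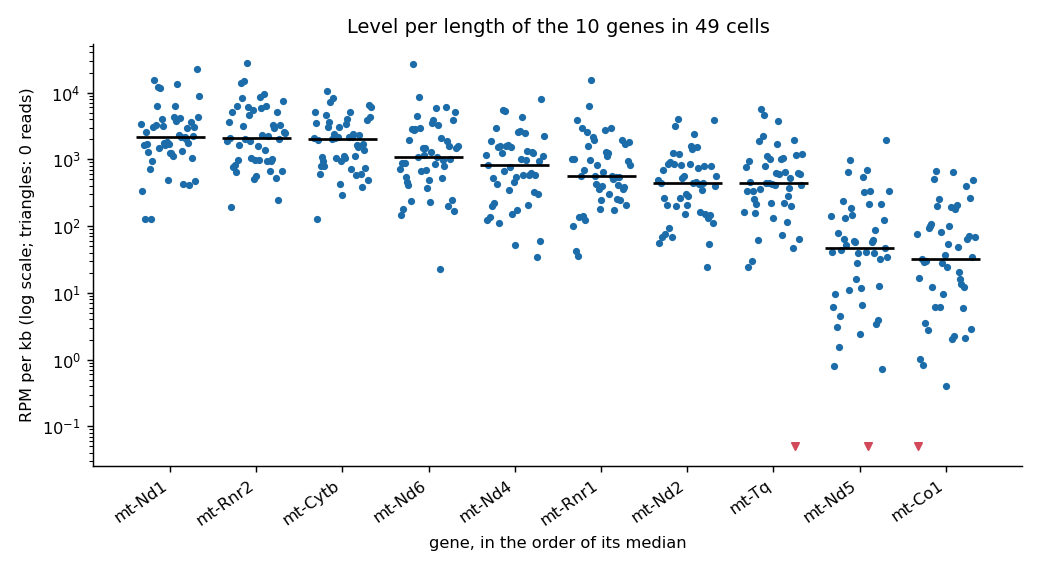
Level of each of the 10 genes (x axis, ordered by median) in RPM per kb of annotated length (y axis, log scale). Points are the 49 cells, lines the medians and triangles at the foot the 3 values with 0 reads, and the medians of mt-Nd5 (47.5) and mt-Co1 (31.7) lie far below the other 8. Of these, mt-Tq (71 bases) is shorter than a read.

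The 10 genes moved together over the cells. For the 45 pairs of genes, rho of the RPM values over the 49 cells was between 0.29 and 0.80, with a median of 0.61, and exceeded 0.5 in 39 pairs. The pair most alike was mt-Rnr1 and mt-Nd4 (0.80, within pools 0.58 to 0.87), and mt-Nd2 and mt-Nd4 came next (0.79, within pools 0.65 to 0.90). The pair least alike was mt-Tq and mt-Nd5 (0.29, within pools -0.22 to 0.63). Set against the sum of the other 9, rho ranged from 0.55 for mt-Nd5 to 0.90 for mt-Rnr2. These points share the depth of their cell, and values relative to a common total are bound to each other.

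The proportions themselves showed no such common movement, as they sum to 100%. Between shares of the mitochondrial reads, rho lay between -0.58 and 0.40. The share of the ribosomal RNAs had a rho of 0.22 with the mitochondrial share of the cell and of -0.10 with its depth.

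The mitochondrial genes were also compared with their nuclear copies. Of the 13 protein-coding genes of the mitochondrial genome, mt-Co2, mt-Atp8, mt-Atp6, mt-Co3, mt-Nd3 and mt-Nd4l are outside the table and were not analysed here. They encode further subunits of complexes IV, V and I and lie side by side at chrM:7013-10173. On chromosome 1, at chr1:24611535-24616197, 7 annotated unprocessed pseudogenes match chrM:6390-11042 with an identity of 99.71% to 100%. That stretch spans all of the 6 genes. For 5 of them, all but mt-Atp8, an annotated nuclear transcript matched at least 98% of the gene. The mt-Atp8 gene falls mostly into a gap of 233 bases between 2 of the pseudogenes, where the mitochondrial genome also has 233 bases. None of the 7 pseudogenes is listed in the table either.

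The listed genes were compared with annotated nuclear transcripts in windows of 100 bases, the length of the reads. No exact match was found for any window of mt-Rnr1, mt-Rnr2, mt-Nd1, mt-Nd5, mt-Nd6 or mt-Cytb. Of the windows of mt-Nd2, 3.19% had one. Exact matches covered 30.8% of the windows of mt-Co1 and 60.8% of those of mt-Nd4. At the 3′ end, where the kit reads, these differed, since all 201 windows in the last 300 bases of mt-Co1 had an exact nuclear copy, and 0 of the 201 of mt-Nd4 did. In mt-Nd2 it was 30 of the 201. In the unlisted genes other than mt-Atp8 the share of windows was 97.6% to 99.9%. The gene with the lowest median level per length, mt-Co1, is also the listed gene whose last 300 bases are shared in every window, and mt-Nd5, with the next lowest, has no exact copy. How reads with several equally good positions were counted is not given in the sources used here, and the part of the copies in the levels of mt-Co1 and mt-Nd4 was not tested.

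**Figure D5:**
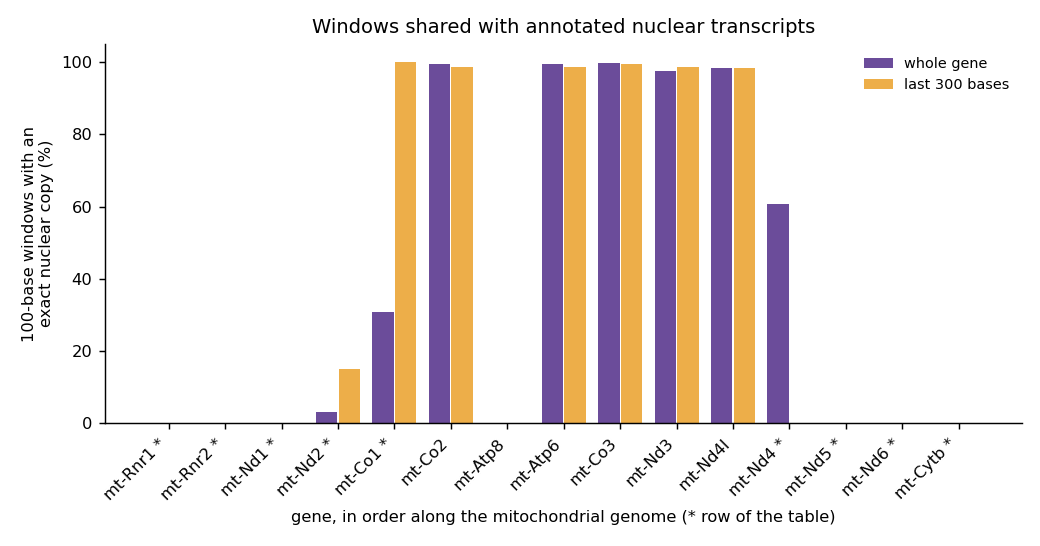
Share of 100-base windows with an exact match in an annotated nuclear transcript (y axis, %) for the ribosomal RNAs and the protein-coding genes in their order along the mitochondrial genome (x axis, asterisk for genes listed in the table), over the whole gene and over its last 300 bases. The block from mt-Co2 to mt-Nd4l is covered except for mt-Atp8, and mt-Co1 is the only listed gene whose last 300 bases are covered wholly.

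The summed level of the nuclear genes for oxidative phosphorylation was almost unrelated to the mitochondrial share over the cells. Of 80 such genes, 75 are listed, and their summed level ranged from 12614 to 66517 RPM with a median of 43886. That is a 5.27-fold range, where the mitochondrial sum spanned 100.9-fold. The rho of this sum with the mitochondrial share was 0.04 over the 49 cells and between -0.39 and 0.38 within pools. Gene by gene, the median rho over the 75 was -0.11, near the median of -0.14 over the 7259 genes with a read in at least 25 cells.

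By complex, the partner subunits gave the following levels, which are summed RPM and not per length. The 5 mitochondrial genes of complex I had a median of 4721 RPM and a range of 476 to 43198, and the 36 nuclear ones had a median of 16990 and a range of 4468 to 28004. Ndufa4, counted here with complex I by its name, had the highest median of that nuclear list, 1501 RPM (209 to 3900). Whether its product belongs to complex I or to another complex was not examined. For complex III, mt-Cytb had 2343 RPM (146 to 11936) and the 9 nuclear subunits had 4965 (879 to 9511). For complex IV, mt-Co1 had 48.97 RPM (0 to 1041) and the 10 nuclear subunits had 7783 (1319 to 28314). Between mitochondrial and nuclear members of a complex, rho was 0.00 for complex I, 0.02 for complex III and 0.25 for complex IV. The sums for complex V, of which no mitochondrial gene was analysed, had a rho of -0.17 with the mitochondrial share.

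Groups of nuclear genes for mitochondrial proteins differed in their relation to the share. The sum of the complex IV genes had a rho of 0.24. Complex II, succinate dehydrogenase, is encoded wholly in the nucleus, and its 4 genes had a median sum of 930 RPM (47.7 to 1709) and a rho of -0.33, between -0.75 and -0.22 within pools. For Sdhc, a membrane anchor of that complex, rho was -0.49. The 13 genes for import and matrix proteins, among them the outer membrane channels Vdac1 (median 223 RPM) and Vdac2 (219 RPM), had a rho of -0.31, between -0.75 and 0.12 within pools. The median over these 13 genes was -0.15, close to that over all genes, and it was -0.26 over the 4 genes of complex II. Both sums, of complex II and of import and matrix genes, also followed depth, with a rho of 0.47 and of 0.50, and the part of depth was not tested.

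Genes that transcribe, process and stabilise mitochondrial RNA were at low levels. Of 30 listed for this role, 17 are in the table, with a summed median of 770 RPM (25.01 to 1915) and a rho of -0.12 with the mitochondrial share. The most abundant were Slirp (159 RPM) and Lrpprc (30.8 RPM), whose products form a complex that stabilises mitochondrial mRNAs, with a rho of -0.19 and of -0.30. The packaging and transcription factor Tfam had a median of 9.45 RPM, a read in 34 of 49 cells and a rho of -0.11. Regulators of mitochondrial biogenesis (6 of 8 listed, among them Nrf1 and Ppargc1a) had a summed median of 111 RPM and a rho of 0.08.

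Markers of cell types were related to the mitochondrial share in both directions. The summed neuron markers, 974 to 15044 RPM, had a rho of -0.39 with it (within pools -0.62 to 0.12), and the members differed. Stmn2, a regulator of microtubules in growing neurites, which had the highest median of the 4, 3587 RPM, had a rho of -0.46. The synaptic vesicle genes Snap25 and Syt1 had a rho of -0.17 and -0.19, near the median of all genes, and Map2, a dendritic microtubule protein, had one of 0.27. The excitatory markers, 2.84 to 1762 RPM, had a rho of -0.36 (within pools -0.57 to 0.40). In contrast, inhibitory markers, from 0 to 6055 RPM with a median of 15.9, had a rho of 0.45 (within pools -0.28 to 0.68). Astrocyte markers, from 0 to 2249 RPM with a median of 28.4, had a rho of 0.39 (within pools 0.13 to 0.68). These sums are sparse, since the median of Lhx6, Aqp4 and Gja1 was 0 RPM, and the whole sum was 0 in 2 cells for the inhibitory and in 3 for the astrocyte markers. Each single gene had a lower rho than its sum. The inhibitory genes ranged from 0.12 (Gad2) to 0.25 (Lhx6) and the astrocyte genes from 0.09 (Aqp4) to 0.36 (Gja1). For the oligodendrocyte lineage (0 to 3402 RPM) rho was 0.23, between -0.22 and 0.60 within pools. For microglia (0 to 3210 RPM) it was 0.27, between -0.33 and 0.88. For the hemoglobin genes (27.8 to 688002 RPM), it was 0.20, between 0.17 and 0.70. Astrocyte markers and hemoglobin genes thus had a rho above 0 in every pool. The part of RNA from other cells in the mitochondrial share was not tested.

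The genes whose RPM followed the mitochondrial share most closely were sought among the same 7259 genes. The highest rho was that of Akap5, an anchor of protein kinase A at synapses, with 0.58 (within pools 0.43 to 0.73). Next came Rn7s6 with 0.54 (within pools -0.12 to 0.85) and the ribosomal RNA gene Rn18s-rs5 with 0.53. They were followed by Tmem170 with 0.52 and Igsf9b, a synaptic adhesion gene, with 0.51. Of these, Rn7s6, Rn18s-rs5 and Tmem170 had a rho of -0.73, -0.67 and -0.67 with depth. The lowest rho was that of Ywhaz, which encodes a 14-3-3 protein, with -0.69 (within pools -0.88 to -0.33). It was followed by Acat1, a mitochondrial enzyme of ketone body use, with -0.65, Chmp7 with -0.61, Klf11 with -0.59 and Ube2e2 with -0.58. All 5 of these followed depth, with a rho between 0.41 (Ube2e2) and 0.53 (Acat1). Of them, Klf11 was the lowest in level, with a median of 0.27 RPM and a read in 28 cells. The genes named here are the extremes of a ranking of 7259 genes on these same cells, so they are a description only. In all, 7 genes had a rho of 0.5 or more and 57 had one of -0.5 or less.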

How the data were processed

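The authors amplified the RNA of 49 single cells with a SMART-Seq v4 kit for 3′ ends, made libraries with Nextera XT and sequenced 100 bases from 1 end. The submitters' notes name STAR, HTSeq and mm10, without versions. The deposited values are RPM, scaled by the authors per cell and not log transformed. Reads were recovered from the step between low values in a cell, and 100% of the nonzero values came out whole, to within 0.01 read. The recovery was tested on simulated data. The design fixed no test, because the cells are 1 condition.

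Shares have exact Clopper-Pearson 95% intervals, and the interval of a median is that of its order statistics. The log2 scale had a pseudocount of 1. Genes compared with the mitochondrial share had a read in at least 25 cells. Coordinates and sequences are those of GENCODE M21 on GRCm38, and nuclear copies were sought in its transcripts by exact windows and with BLAST 2.17.0. The software was scipy 1.17.1, numpy 2.4.6, pandas 2.3.3 and matplotlib 3.10.9 under Python 3.11.15.

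Genes named are all mt- genes, members of lists for oxidative phosphorylation, mitochondrial RNA, biogenesis, import, nuclear-retained RNA, immediate early and ribosomal protein genes and cell type markers, and the 5 genes of highest and lowest rho. The members and lists were chosen with earlier results of these data known. The alternatives were other denominators, thinning (which leaves shares as they are but for sampling), pooled reads, reads per kb, other pseudocounts and filters, and leaving out each library pool. Leaving out the cell with the most hemoglobin was added after seeing the data.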

Additional observations from a re-analysis of the deposited data

How the results depend on the processing

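No paired analysis was possible because the design has a single condition. The alternatives gave 40 values for the main results, of which 36 stayed within their tolerance. For a rho the tolerance was 0.1. With the protein-coding genes only, the median mitochondrial share was 0.719% in place of 1.19%. Counted as reads per kb, the ribosomal RNAs took 28.02% in place of 36.3%. Relative to reads that are neither mitochondrial nor hemoglobin, the rho with nuclear oxidative phosphorylation genes was 0.15 in place of 0.04. With genes that had a read in all 49 cells, 27 had a rho of 0.5 or more in size in place of 64 of 7259. That filter also leaves fewer genes, so these counts cannot be compared as shares. Leaving out each library pool in turn gave median shares of 1.03% to 1.25%, a rho with depth of -0.52 to -0.33, a ribosomal share of 35.6% to 38.7% and a rho with nuclear oxidative phosphorylation genes of -0.01 to 0.12. Without the cell of 68.8% hemoglobin reads the median share was 1.12% and the rho with depth -0.43. Of 90 alternative values for the composition by gene, 6 moved, 4 of them by the per-length scale. A value that counted as unmoved could still differ widely. With the reads of all cells pooled, mt-Co1 took 0.914% in place of 0.477% and counted as unmoved. The filter of at least 1000 mitochondrial reads left out no cell, as the fewest were 2522. It gave 1 of the 40 values and 10 of the 90, and these could not move. Depth limits the low genes most, since 1 read stood for 4.77 RPM in the shallowest cell.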

Other observations

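Other groups of genes were set beside the mitochondrial share as values only. The nuclear-retained RNAs (4 genes, led by Malat1 with a median of 6287 RPM) had a rho of 0.07 with it, between -0.52 and 0.40 within pools. The immediate early genes (6 listed, among them Egr1 with 142 RPM and Fos with 79.8 RPM) had a rho of -0.18, with single genes from -0.37 (Fos) to 0.23 (Atf3) and a median of -0.06. For 43 cytosolic ribosomal protein genes rho was 0.15 (within pools -0.41 to 0.77), beside -0.30 with depth. Single genes stood for endothelium (Flt1, rho 0.06) and choroid plexus (Ttr, rho 0.01).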
